A study of Mus musculus with 38 samples.

Results

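The prefrontal cortex (PFC) of 5 male Ube3a2X mice was compared with that of 5 male WT littermates by RNA sequencing. These 10 libraries were chosen by the labels of tissue, sex, and genotype, out of 38 libraries in the series. Ube3a2X mice (spelled Ube3a2x in the labels) were adult homozygous transgenics on the FVB/NJ background that carry 2 extra copies of Ube3a, whichever parent they come from. The extra copies are tagged at the C terminus, and the study names their ligase activity as uncertain. The WT mice had the same background without the transgene. Each library came from 1 mouse and from small punches of bulk tissue, so fewer cells of a type and less RNA per cell cannot be told apart. The 10 female PFC libraries, with 5 of each genotype, were used only where the effect in males was set against that in females.

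Ube3a encodes an E3 ubiquitin ligase that tags other proteins for degradation by the proteasome and can also act as a coactivator of steroid hormone receptors. In neurons the paternal copy is silenced by a long antisense transcript, part of the Snhg14 transcription unit, and the maternal copy gives most of the protein. Loss of the maternal copy causes Angelman syndrome, and extra copies of the region are found in dup15q syndrome, a frequent genetic form of autism.

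Counted reads per library were 48.7 to 69.1 M. RNA integrity numbers (RIN) were 6.8 to 8.2 in WT and 6.7 to 7.9 in Ube3a2X males, and the means differed by −0.18 (two-sided exact permutation test, p = 0.651). Of 15 measures per library, none differed between genotypes after adjustment. The intronic share of bases came nearest, at 4.95 ± 0.686% in WT and 3.46 ± 0.424% in Ube3a2X males, where the groups did not overlap (exact permutation p = 0.00794, the smallest that 5 against 5 allows, and 0.119 after Benjamini-Hochberg adjustment over the 15 measures). The proportion of reads in the expected orientation (strand share) was 92.6 to 95.2% in WT males. It was 98.2 to 99.1% in Ube3a2X 238, 253, 267, and 402 and 92.1% in Ube3a2X 258 (exact permutation p = 0.0476, adjusted 0.317). Library 258 stood apart in other measures too, with 51.0% of bases in coding sequence against 42.3 to 46.0% in the other 9 libraries, and it had the largest loading on the first surrogate variable, −0.79. Counts without it are given beside the gene lists below where they differ most.

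Genotype was tested over 11274 genes with a model that held RIN and 2 surrogate variables. With false discovery control at 0.05 (edgeR), 22 genes were called, 0.195% of those tested, with 4 higher and 18 lower in Ube3a2X males. With RLE in place of TMM scaling there were 58, with 23 higher and 35 lower. At an unadjusted p under 0.05 there were 1081 higher genes (9.59%) and 1415 lower genes (12.6%). The balance turned under other settings, with 1277 higher and 1191 lower after RLE scaling and 1305 and 1158 by DESeq2. The 2 groups of 5 did not overlap in 276 genes (2.45%). The median log2 fold change over all genes was −0.01. The 22 calls depended on the model and on single libraries. With RIN as the only covariate, 1 gene was called, Ube3a. Leaving out 1 library gave 1 or 2 genes without WT 245, 251, or 266, 5 genes without WT 256 or Ube3a2X 238, 8 without 267, 10 without 402, 61 without WT 403, and 999 without Ube3a2X 253. Without Ube3a2X 258 there were 18 genes, and 9 of the 22 were among them.

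The overexpressed gene itself gave the clearest difference. Ube3a (ENSMUSG00000025326; GENCODE vM21 on GRCm38, chromosome 7, 59228750 to 59311536) had 279.8, 268, 309, 268, and 289.6 CPM (counts scaled by TMM to the reads of the tested genes) in WT 245, 251, 256, 266, and 403. It had 1319.6, 1434, 932, 797, and 1278 CPM in Ube3a2X 238, 253, 258, 267, and 402. All Ube3a2X libraries lay above all WT libraries, and their spread was wider (1152 ± 273 against 283 ± 17.1, SD, n = 5). The log2 fold change was 2.05 ± 0.15 (SE; adjusted p = 0.00212, edgeR), a 4.14-fold level. Leaving out 1 library moved it between 1.94 and 2.24, and without Ube3a2X 238 the adjusted p was 0.0839 at a log2 fold change of 2.17. When 2 principal components of the library quality measures (below, quality components) replaced the surrogate variables it was also 2.17 and was not called (adjusted p = 0.509, edgeR).

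**Figure D1:**
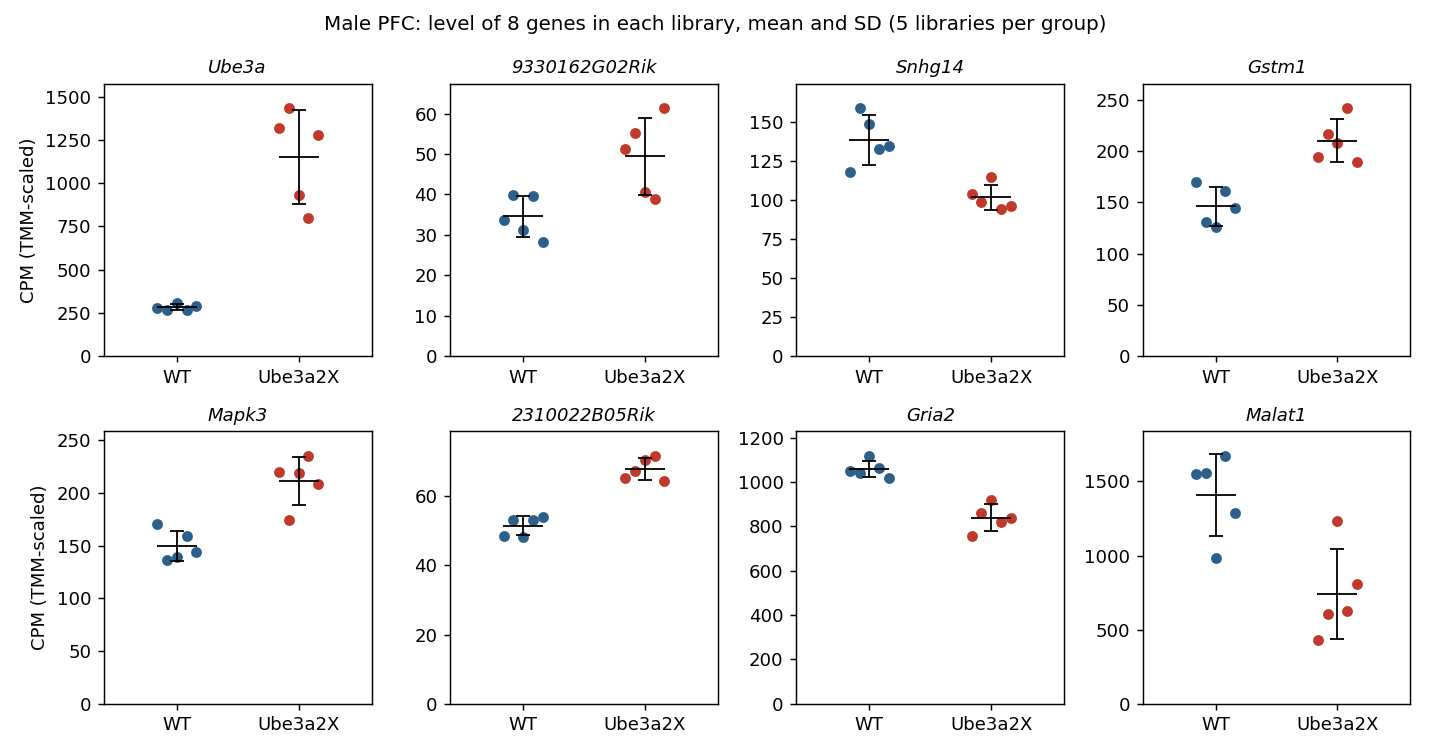
Level of 8 genes in each male PFC library, in CPM on linear axes that start at 0, with the mean and SD of the 5 WT (blue) and the 5 Ube3a2X (red) libraries. Ube3a was 267.6 to 308.7 CPM in WT and 796.5 to 1434.5 CPM in Ube3a2X males, and Malat1 overlapped between the groups through library 258 at 1234 CPM.

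A pair of noncoding genes overlaps Ube3a on the opposite strand. Snhg14 (chromosome 7, 59307924 to 59975759), the host of the antisense transcript, shares 1803 exonic bases with it. It had 118.0, 159, 149, 133, and 135 CPM in WT 245, 251, 256, 266, and 403, and 104, 98.7, 115, 94.7, and 96.5 CPM in Ube3a2X 238, 253, 258, 267, and 402. The groups did not overlap, and Snhg14 fell by 0.40 on the log2 scale (SE 0.06; adjusted p = 0.0315, edgeR). Its transcripts are poor in GC (31.0%), and once each library's dependence on GC content and transcript length was taken out (below, trend removed) the difference was −0.10 (unadjusted p = 0.0794). 9330162G02Rik (chromosome 7, 59223847 to 59254788), an unclassified transcript with 34.5 ± 5.18 CPM in WT males, had 49.5 ± 9.62 CPM in Ube3a2X males (SD, n = 5), a log2 fold change of 0.56 ± 0.12 that was not called (adjusted p = 0.0649, edgeR). It was 0.996 with the trend removed. Ube3a had 16.8 times as many reads as 9330162G02Rik, and reads of Ube3a placed on the wrong strand and reads of this gene cannot be told apart here.

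The other genes of the imprinted region and its flank did not pass the test. Of 18 listed genes, 12 were tested, and besides Ube3a and 9330162G02Rik all 10 had negative log2 fold changes, the lowest −0.19 for Snurf. Tubgcp5, Nipa1, and Nipa2, which lie in the region's proximal flank in humans, were at −0.18, −0.17, and −0.18, the 3 of them at an unadjusted p under 0.05, and 0 of the list were lower without 258. The median of the 12 genes was −0.10, and 0.00 with the trend removed.

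Besides Ube3a, 3 genes rose. Gstm1, a glutathione S-transferase that detoxifies electrophiles, had 169.8, 131, 126, 161, and 144 CPM in WT 245, 251, 256, 266, and 403, and 194, 217, 208, 242, and 189 CPM in Ube3a2X 238, 253, 258, 267, and 402 (log2 fold change 0.47 ± 0.07, adjusted p = 0.0252, edgeR). Mapk3, which encodes the kinase ERK1 of the MAP kinase pathway, had 150 ± 14.2 CPM in WT and 212 ± 22.7 CPM in Ube3a2X males (0.45 ± 0.07, adjusted p = 0.0315, edgeR). 2310022B05Rik, a protein-coding gene of unassigned function, had 51.4 ± 2.78 and 67.8 ± 3.17 CPM (0.40 ± 0.07, adjusted p = 0.0435, edgeR). None of the 3 overlapped between the groups. All 3 have a GC content of 53.6 to 57.6%, above the median of the tested genes, 49.8%. Without Ube3a2X 258 only Gstm1 of the 3 was called (adjusted p = 0.0225, edgeR). The genes next in order were not called: Camk2n2, an inhibitor of CaMKII, at 0.42, the ribosomal protein genes Rpl19 (0.31) and Rps10 (0.40), the transcription factor gene Deaf1 (0.34), the GABA transporter gene Slc6a11 (0.45), Zfp853 (0.59), and Pea15a (0.31), a regulator of ERK localization. Gm27597 (0.30) lies inside Rpl19 and shares its reads.

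Of the 18 genes that fell, 8 share exonic sequence with a gene on the opposite strand that had at least 5 times as many reads, over the 10 libraries and in each WT male. Over the 10 libraries this holds for 3.54% of all genes tested. Snhg14 would be added only through the transgene, since Ube3a had 1.68 to 2.37 times its reads in WT males and 8.10 to 14.5 times in Ube3a2X males. Ulk4, a kinase-like gene with roles in neuronal and ciliary function, showed the order of the libraries plainly. It had 9.62, 7.87, 11.8, 11.9, and 11.2 CPM in WT 245, 251, 256, 266, and 403, and 2.40, 2.41, 9.58, 2.99, and 2.84 CPM in Ube3a2X 238, 253, 258, 267, and 402. It was low in the 4 Ube3a2X libraries with the high strand share and within the WT range in 258 (log2 fold change −1.57 ± 0.18, adjusted p = 0.0135, edgeR). It shares 759 exonic bases with Ctnnb1, which encodes β-catenin and had 75.8 times as many reads. Library 258 was also the highest Ube3a2X library for 1700101I11Rik (−1.55 ± 0.19), opposite the autophagy gene Gabarapl1 with 75.6 times the reads, and for Nme7 (−0.74 ± 0.10), a nucleoside diphosphate kinase gene opposite the sodium pump gene Atp1b1 with 78.2 times the reads.

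A further 4 genes of this kind were the pseudogene 1810014B01Rik (−1.89 ± 0.25) opposite the chaperone gene Hsp90b1, Phykpl (−1.15 ± 0.18), an enzyme of lysine breakdown, opposite Hnrnpab, the antisense gene Gm45552 (−0.86 ± 0.12), and Fars2 (−0.64 ± 0.10), a mitochondrial aminoacyl-tRNA synthetase gene, opposite the neuritin gene Nrn1. The partners named here had 38.9, 17.4, and 15.3 times as many reads. Thoc1, a subunit of the THO complex of mRNA export (−0.49 ± 0.07), lies opposite the deubiquitinase gene Usp14 with 8.63 times the reads. Pter (−2.01 ± 0.21), a phosphotriesterase-related gene and the largest fall among the called genes, has no annotated exonic overlap, but ends 2 bases from C1ql3 on the opposite strand, which had 12.5 times as many reads. 1810014B01Rik, at 14.5 to 23.2 CPM in WT males and 2.96 to 5.53 CPM in 4 Ube3a2X males, had 23.4 CPM in Ube3a2X 258. Phykpl had 13.1 CPM and Gm45552 15.5 CPM in that library, above the 8.72 to 11.03 and 8.56 to 13.3 CPM of WT males.

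Among females, 2 Ube3a2X libraries had a high strand share and 3 a low one. Across the 20 PFC libraries, Ulk4 was 2.41 to 3.31 CPM in the 6 Ube3a2X libraries with a strand share of 97.4 to 99.1%. It was 9.499 to 15.2 CPM in the 4 Ube3a2X libraries with 91.5 to 93.9%, and 6.93 to 14.7 CPM in the 10 WT libraries with 92.5 to 95.6%. Pter was 3.50 to 7.83, 21.8 to 38.7, and 15.3 to 35.9 CPM in these 3 sets, and 1810014B01Rik was 2.98 to 5.50, 17.5 to 27.1, and 10.99 to 22.9 CPM. In each of these 3 genes the Ube3a2X libraries with the low share overlapped the WT libraries or lay above them, and those with the high share lay below all WT libraries. Thoc1 overlapped instead, at 22.3 to 32.3 CPM with the high share and 31.3 to 43.3 CPM in WT libraries. Reads of the partner placed on the wrong strand were estimated from the partner's reads, the part of its exons that overlaps, and the proportion in the unexpected orientation, taking coverage as even. For 1700101I11Rik this gave a mean of 755 reads in WT and 245 in Ube3a2X males, where 767 and 265.0 were counted. For Nme7 it gave a difference of 992 reads, where 734 were counted, and for Ulk4 167 reads, where 333 were counted. For 1810014B01Rik it gave 114 reads, where 611 were counted, for Phykpl 85.4, where 256 were counted, for Thoc1 193, where 649 were counted, and for Snhg14 −12.9, where 2112 were counted. For Fars2 the estimate was 275 reads in WT and 75.3 in Ube3a2X males, where 1356 and 834 were counted. These reads are not scaled to depth. With the strand share and RIN as covariates, the log2 fold changes were −0.56 for Ulk4, −0.28 for Nme7, −0.74 for Pter, −0.12 for Phykpl, and 0.10 for Gm45552. In that model 14 of the 22 genes were still called in the same direction, among them Ulk4, Pter, 1700101I11Rik, Fars2, and Snhg14. It called 2256 of the 11274 genes tested in all. Among Ube3a2X males only 258 had a strand share outside the high range, so that model separates genotype from strand share largely through this library.

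**Figure D2:**
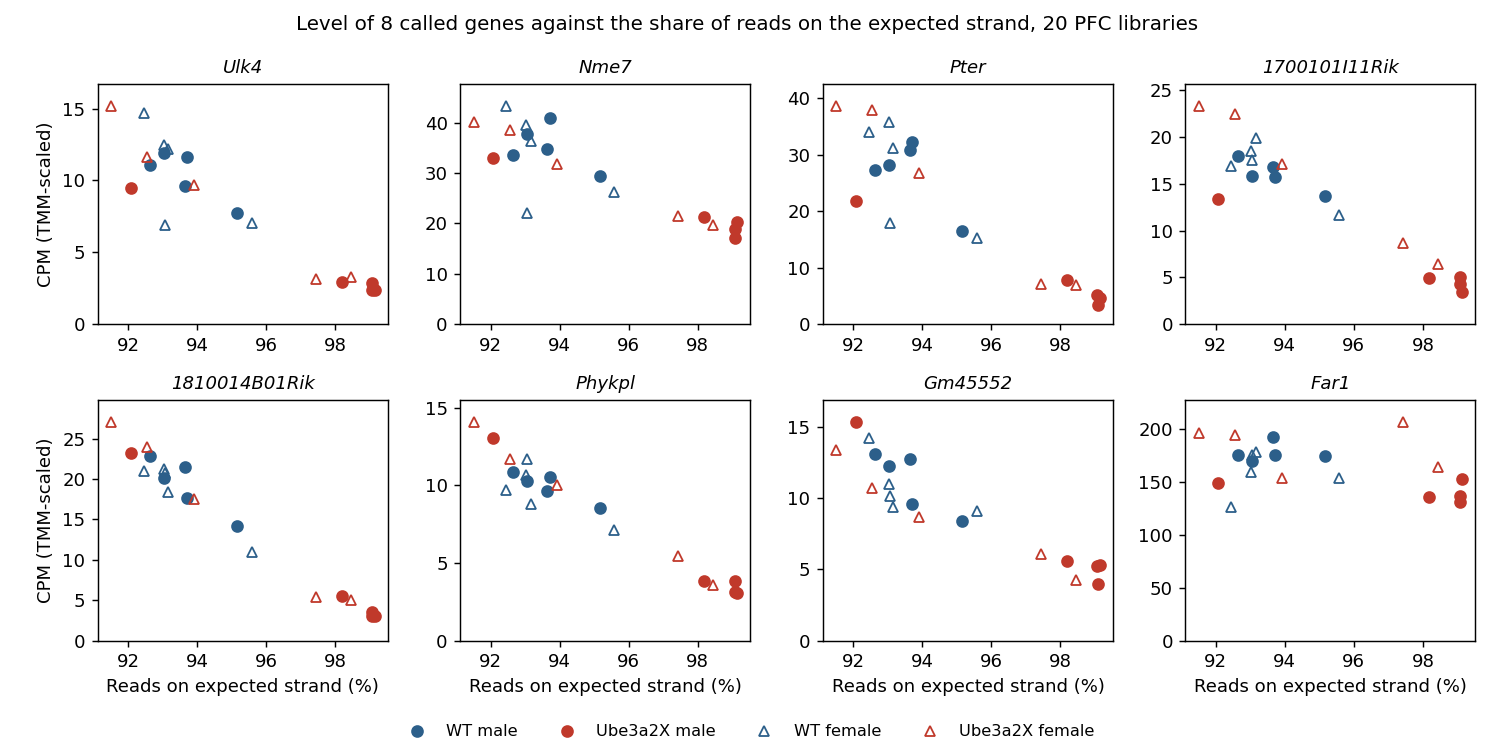
CPM of 8 genes that fell in Ube3a2X males (linear axes from 0) against the strand share in percent in each of the 20 PFC libraries, with circles for males, triangles for females, blue for WT, and red for Ube3a2X. In Ulk4, Pter, 1700101I11Rik, 1810014B01Rik, Phykpl, and Gm45552 the 6 libraries above 97% lie lowest, in Nme7 they lie below all WT libraries, and Far1 shows no such order.

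The remaining falls were of genes poor in GC. The 9 called genes other than Snhg14 that had no such partner had a GC content of 29.1 to 41.1%, with a median of 37.6%, and they include Pter. Hyls1 also followed the strand share, at 5.14 to 6.39 CPM in the 6 Ube3a2X libraries with a high share, 7.22 to 8.44 CPM in the 4 with a low one, and 7.12 to 9.69 CPM in WT libraries. On the same scale Prpf39 was 60.7 CPM in Ube3a2X 258, 33.2 to 45.9 CPM in the other Ube3a2X males, and 57.1 to 62.7 CPM in WT males. Across the 20 libraries it overlapped, at 33.2 to 53.7 CPM with the high share and 47.6 to 62.7 CPM in WT libraries. Far1, a reductase that makes fatty alcohols for ether lipids, had 193, 178.0, 178, 171, and 178 CPM in WT 245, 251, 256, 266, and 403, and 130.1, 151, 150.1, 137, and 135 CPM in Ube3a2X 238, 253, 258, 267, and 402 (−0.36 ± 0.06, adjusted p = 0.0435, edgeR). Lnpk, which stabilizes junctions of the endoplasmic reticulum, had 127 ± 7.27 and 92.3 ± 11.1 CPM (−0.46 ± 0.07). Ttc14 (−0.46), the homeobox gene Hdx (−0.64), the splicing factor gene Prpf39 (−0.44), the centriolar gene Hyls1 (−0.63), and the noncoding C730002L08Rik (−0.63) completed the group, with Gm27694 (−1.12), which lies inside Malat1 and shares its reads. With the trend removed these values were −0.16 for Far1, −0.22 for Lnpk, −0.23 for Ttc14, −0.44 for Hdx, −0.27 for Prpf39, −0.53 for Hyls1, −0.36 for C730002L08Rik, and −0.56 for Gm27694, and none of the 8 was called. In that model 10 of the 22 calls were kept, Ube3a, Gstm1, Pter, and 7 genes with an opposite partner, among 39 genes called in all. Lnpk, Phykpl, 1810014B01Rik, Hyls1, Far1, and Ttc14 fell outside the fixed number of named genes and were chosen after their values were seen.

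Fold changes followed GC content across the whole transcriptome. The median log2 fold change was −0.16 in the 1127 genes with the lowest GC content (up to 40.9%) and 0.09 in the 1127 with the highest (from 58.3%). Pearson's r over 11264 genes was 0.42, as a description across genes that share libraries. Of the former, 487 were lower and 15 higher at an unadjusted p under 0.05, and of the latter 11 were lower and 180 higher. The slope of each library on GC content, against the mean of the 10, was 0.22, 0.17, and 0.22 log2 units per 10 points of GC in Ube3a2X 238, 267, and 402, −0.12 and −0.19 in 253 and 258, and −0.13 to 0.02 in WT males. The mean slopes differed by 0.11 (exact permutation p = 0.222), which is within the spread between libraries. Leaving out 1 library moved the difference between 0.075 and 0.18. With the trend removed, r was 0.00 and the genes at an unadjusted p under 0.05 split into 1013 higher and 676 lower, in place of 1081 and 1415. The X chromosome, with a median GC content of 45.3%, had a median log2 fold change of −0.07, and chromosome 7 had 0.03. With the trend removed these medians were −0.004 and 0.01.

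**Figure D3:**
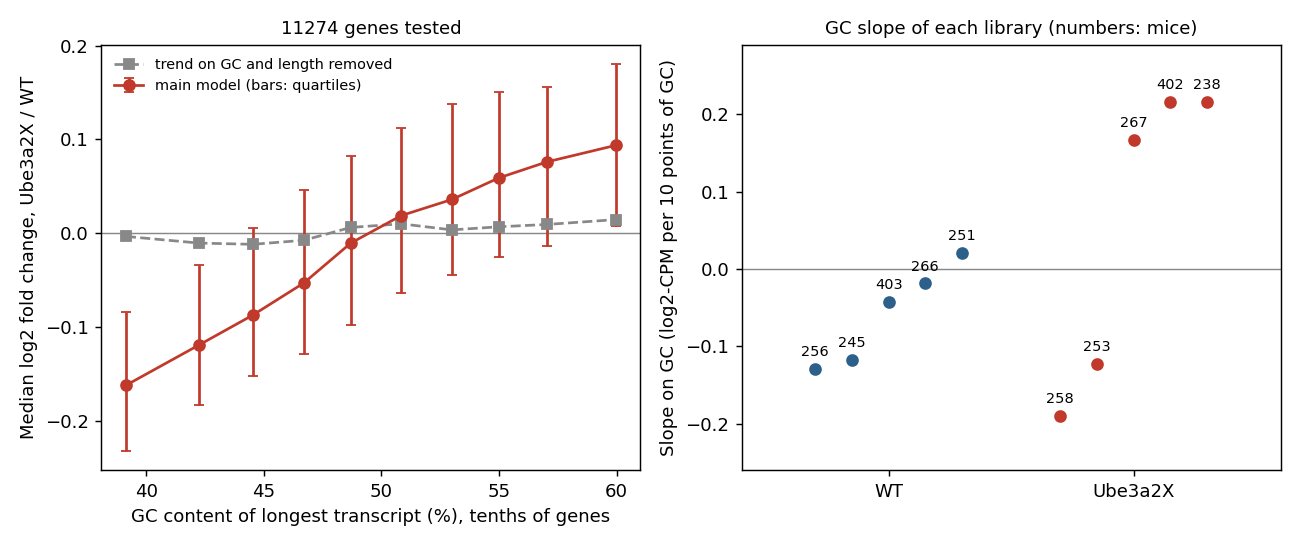
Left, median log2 fold change of Ube3a2X over WT in 10 equal bins of genes by GC content of the longest transcript (red, bars give quartiles), and the same with the trend of each library removed (grey). Right, slope of log2-CPM on GC content for each library, labelled by mouse; the medians run from −0.16 to 0.09 and the slopes of Ube3a2X libraries from −0.19 to 0.22.

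Groups of genes were then described by their counts at an unadjusted p under 0.05, to be read against 9.59% of all genes higher and 12.6% lower, and by their medians, to be read against −0.01. Without Ube3a2X 258 the shares of all genes were 6.32% higher and 5.18% lower, without 253 they were 14.4% and 16.6%, and with RIN as the only covariate 3.93% and 4.64%. Within the lists, the called genes were Ube3a and Mapk3, so the values below are not calls unless stated. Among glutamate receptor genes, 3 of 18 were higher and 5 lower (0 and 5 without 258, 5 and 5 without 253, 2 and 1 with the trend removed), with a median of 0.04, and of −0.23 with 2 quality components. Gria2, the AMPA receptor subunit that limits calcium entry, had 1051, 1039.6, 1116, 1065, and 1018 CPM in WT 245, 251, 256, 266, and 403, and 757, 861, 920.0, 818, and 839 CPM in Ube3a2X 238, 253, 258, 267, and 402. The groups did not overlap, and the log2 fold change was −0.33 ± 0.06 (adjusted p = 0.0508, edgeR), and −0.09 with the trend removed. Grin2a, Grin2b, Gria4, and Grm5 were at −0.28, −0.24, −0.25, and −0.23, and Grm3, Grm4, and Grin2c at 0.20, 0.22, and 0.26. Among GABA receptor genes, 4 of 12 were lower and 0 higher, with a median of −0.08 and the subunit genes Gabrb2 at −0.25 and Gabra4 at −0.20. Without 258 none of the 12 was lower or higher at this level, and with the trend removed 1 was lower and 2 were higher.

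Of 17 genes of the postsynaptic scaffold, 13 had positive values with a median of 0.19, and 3 were higher at an unadjusted p under 0.05: Camk2a (0.37), the calcium-dependent kinase of dendritic spines, Homer2 (0.24), and Dlg2 (0.19). Camk2a was 4260 to 6214 CPM in WT and 5471 to 10375 CPM in Ube3a2X males, highest in 258, and its log2 fold change was 0.26 without that library. Without 258 the median of the list was 0.02, with 1 higher, and with the trend removed 0.08. Without 253 it was 0.28, with 9 higher. Transmitter release genes had a median of 0.02, with Unc13b, a vesicle priming factor, at −0.21. Sodium and calcium channel genes were lower in 6 of 21 and higher in 1, with Cacnb4 at −0.21 and Cacna2d1 at −0.24, and without 258 in 0 of 21. Potassium and HCN channel genes were lower in 7 of 24 and higher in 3, with Kcnh7 at −0.31 and Kcnd2 at −0.21, and without 258 lower in 2 and higher in 1. With RIN as the only covariate the glutamate receptor, GABA receptor, sodium and calcium channel, and potassium and HCN channel lists had 3, 1, 3, and 1 lower and 0, 0, 1, and 1 higher.

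Genes of the ubiquitin pathway, in which Ube3a acts, were described next. Of 11 genes for ubiquitin and its E1 and E2 enzymes, 2 were higher and 1 lower (2 and 6 without 253, 3 and 0 without 258). The median was −0.12, with Ube2g1 at −0.23 and Ube2r2 at 0.19. That median was 0.01 without 258 and 0.03 with the trend removed. Of 26 proteasome subunits, 1 was higher (Psmd4, a ubiquitin receptor, 0.16) and 1 lower (the activator Psme4, −0.17), with a median of −0.01, and 0 and 9 without 253. Without 258 there were 3 higher and 0 lower, with a median of 0.09, and with the trend removed 4 and 0. Among 11 tested genes whose proteins have been reported as UBE3A substrates or partners, Ptpa (0.17), Arhgef15 (0.16), and Psmd4 were higher and Cdkn1b (−0.19), a cell cycle inhibitor, lower. Transcript levels say nothing of their protein levels. The list had 2 higher and 0 lower genes without 258, 1 and 1 without 253, and 0 and 1 with RIN as the only covariate. Genes of mTOR, PI3K, and ERK signalling had a median of −0.01, with Mapk3 called and Hras at 0.28. Steroid receptors and coactivators had a median of −0.06, with the progesterone receptor gene Pgr at −0.24 and Nr3c2 at −0.12, and the lists for cholesterol synthesis (Srebf2 at 0.18, Dhcr7 at 0.17), glucocorticoid response (Ddit4 at −0.33, Pdk4 at 0.30), the circadian clock (Npas2 at 0.28, Rora at −0.17), and chaperones (Dnaja1 at −0.23, Hsp90aa1 at −0.17) had medians between −0.11 and 0.00. Without 258 the steroid receptor median was 0.02, and those for cholesterol, glucocorticoid response, clock, and chaperones were 0.10, 0.0007, −0.0007, and 0.05. Neurotrophins and neuropeptides had a median of 0.04, with Sst at 0.20 and Adcyap1 at −0.33.

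Of 52 cytosolic ribosomal protein genes tested, 49 had positive log2 fold changes, 17 were higher at an unadjusted p under 0.05 (background 9.59%), and 0 were lower, with a median of 0.13. Rpl19 was 231 to 264 CPM in WT males and 262 to 346 CPM in Ube3a2X males, with 258 lowest of the latter, and Rpl13 (0.43) was 74.8 to 95.0 and 87.7 to 156 CPM. The median was 0.14 with the trend removed and 0.27 without 258, where 40 of 52 were higher. Without 253 it was 0.06, with 13 higher, and with RIN as the only covariate 7 were higher. Nuclear genes of the respiratory chain had a median of −0.01, with 3 of 68 higher, Cox8a (0.40) and Cox6a1 (0.25) among them, and a median of 0.12 without 258. Without 253 it was −0.11, with 3 higher and 21 lower. The 13 tested γ-protocadherin genes were all between 0.16 and 0.19, led by Pcdhgc3 and Pcdhgb8, but share their 3′ exons and so their reads, and count as 1 observation. All 13 had an unadjusted p under 0.05, and none did without 258 or with the trend removed.

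Lists of glial and vessel markers had positive medians in the model of the report. All 15 astrocyte markers had positive values, with a median of 0.21, and 9 were higher at an unadjusted p under 0.05. Mlc1, a membrane protein of astrocyte endfeet, had 178, 145, 141, 176, and 169 CPM in WT 245, 251, 256, 266, and 403, and 179.9, 206, 214, 239, and 204 CPM in Ube3a2X 238, 253, 258, 267, and 402 (log2 fold change 0.33 ± 0.07, adjusted p = 0.0591, edgeR). The groups did not overlap. Slc1a3, the glutamate transporter GLAST, was at 0.33, with 633 to 1006 CPM in WT and 778 to 1809 CPM in Ube3a2X males, highest in 258, and 0.31 without that library. All 11 oligodendrocyte precursor markers had positive values, with a median of 0.31, and 6 were higher, with Pdgfra, the receptor for PDGF, at 0.34 and Lhfpl3 at 0.31. Of 15 endothelial and mural markers 8 were higher (median 0.19), with the VEGF receptor gene Kdr at 0.38 and Vtn at 0.28. Of 11 microglial markers 3 were higher (median 0.16), with the fractalkine receptor gene Cx3cr1 at 0.29 and C1qb at 0.28. Oligodendrocyte and myelin markers were higher in 1 of 16 (median 0.13), with Fa2h at 0.29 and Cnp at 0.19. That median was 0.04 with the trend removed and −0.31 with 2 quality components.

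The medians of the other 4 lists were 0.19, 0.24, 0.18, and 0.12 for astrocytes, precursors, vessels, and microglia with the trend removed, and without 258 they were 0.22, 0.18, 0.24, and 0.18. With 2 quality components as covariates the precursor median was −0.01 and the other 3 were 0.41, 0.46, and 0.31. With RIN as the only covariate, 4 of 15 astrocyte, 4 of 11 precursor, 1 of 15 vessel, and 3 of 11 microglial markers were higher. The markers at an unadjusted p under 0.05 numbered 7 of 15, 3 of 11, 5 of 15, and 4 of 11 without 258. In summed CPM, microglial markers were 471 to 649 in WT and 609 to 704 in Ube3a2X males, and precursor markers 289 to 427 and 381 to 548. Vessel markers had the same median sum, 755, in both groups, at 550.1 to 820.3 in WT and 694 to 847 in 4 Ube3a2X males, with 1220 in 258. Astrocyte markers were 7124 to 9671 in WT and 8418 to 11174 in 4 Ube3a2X males, with 15896 in 258. The groups overlapped in each of these sums. Of 13 inhibitory markers 3 were higher, Sst at 0.20 among them, and 1 was lower, Lamp5 at −0.28. Excitatory markers had a median of 0.01, with Camk2a at 0.37 and Nrn1 at −0.20, and inhibitory markers a median of 0.01. With 2 quality components these medians were −0.26 and 0.14, and the inhibitory median was 0.13 without 258.

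**Figure D4:**
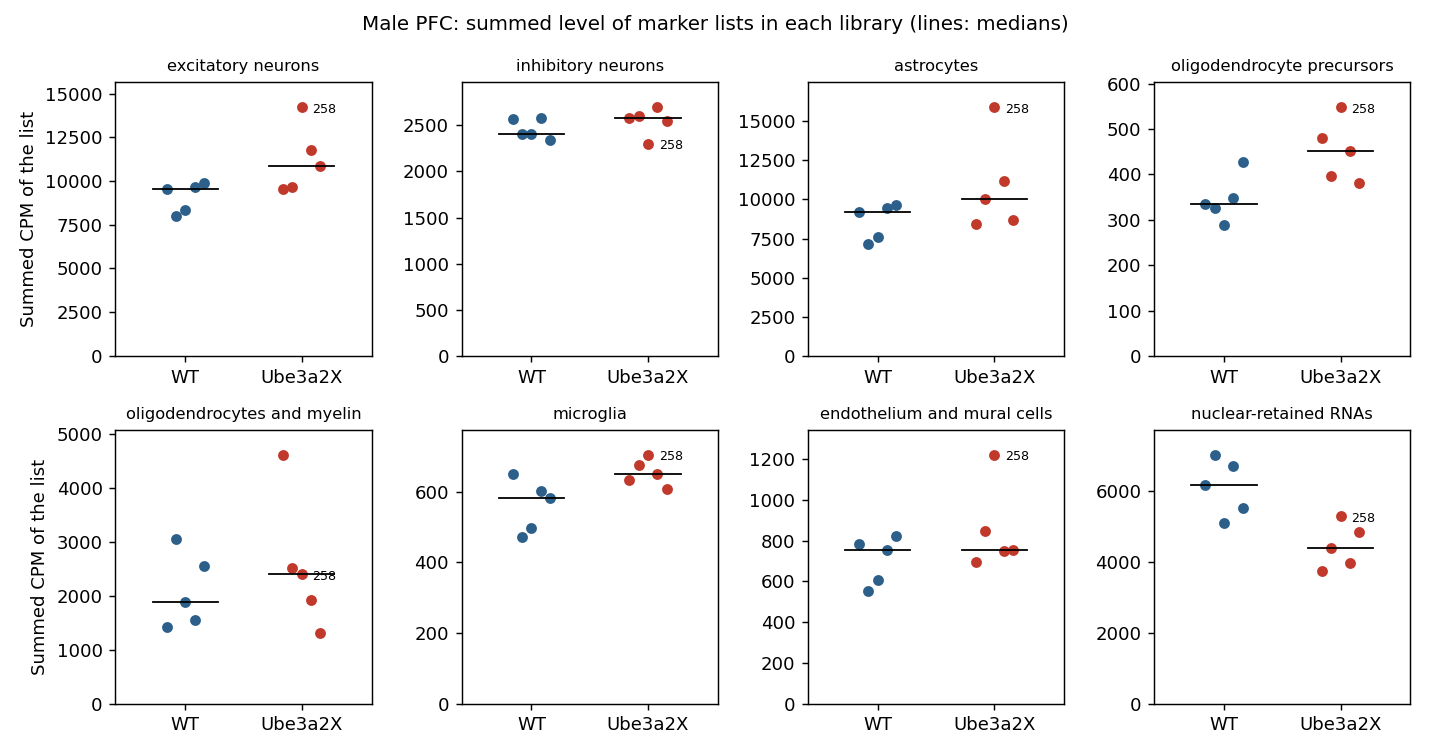
Summed CPM of 8 gene lists in each male PFC library (axes from 0, lines at the medians, Ube3a2X 258 labelled). Sums of microglial markers run from 471 to 649 in WT and from 609 to 704 in Ube3a2X males, and nuclear-retained RNAs from 5092 to 7028 and from 3735 to 5300.

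Markers of other tissues and regions were measured too. Summed markers of the hypothalamus and pituitary were 1.93 to 3.66 CPM, with Avp, Hcrt, and Oxt under 0.1 CPM in all 10 libraries, and those of the choroid plexus and ependyma 5.32 to 10.6 CPM (Kl at 0.07, Rsph1 at −0.03). Meningeal markers were 131 to 874 CPM in WT and 139 to 589 CPM in Ube3a2X males, mostly from Ptgds (−0.38 ± 0.73), with Col1a1 at −0.25. Striatal markers were 246 to 268 and 259 to 297 CPM, with Penk at 0.15 and Rgs9 at 0.15. Thalamic markers were 928 to 1321 and 944 to 1446 CPM, with Ramp3 and Lef1 both at 0.32. Rora, the 1 of 6 tested thalamic markers with a negative value, was at −0.17. Olfactory bulb markers were 19.2 to 23.6 and 19.1 to 39.6 CPM, with Cdhr1 at 0.62 and Sp8 at −0.17. Blood markers were 51.8 to 94.8 and 48.9 to 128 CPM, with Hba-a1 at 0.37, Alas2 at 0.26, Hbb-bs at 0.04, and Hbb-bt at −0.17.

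Immediate early genes and nuclear-retained RNAs had the lowest medians. Immediate early genes, which neurons switch on with activity, had negative values in 17 of 19 and a median of −0.36, and 2 were lower at an unadjusted p under 0.05, Btg2 (−0.83) and Ier2 (−0.84). With RIN as the only covariate 6 of 19 were lower, and with 2 quality components the median was −0.86. Arc (−1.58 ± 0.99) and Fos (−1.07 ± 0.71), the classic genes of the list, did not pass at unadjusted p of 0.172 and 0.188. Btg2 was 36.2, 12.1, 28.4, 25.9, and 24.6 CPM in WT 245, 251, 256, 266, and 403, and 11.8, 10.8, 16.5, 31.2, and 13.7 CPM in Ube3a2X 238, 253, 258, 267, and 402. The groups overlapped broadly, with 3 Ube3a2X libraries within the WT range and 4 WT libraries within the Ube3a2X range. Nuclear-retained and long noncoding RNAs had negative values in all 8 tested, 6 of them lower, with a median of −0.47. Malat1 had 1553, 1555, 983, 1671, and 1289 CPM in WT, and 429, 607, 1234, 628, and 807 CPM in Ube3a2X males, in the same order of libraries (log2 fold change −0.98 ± 0.20, adjusted p = 0.0713, edgeR). Meg3, Miat, Snhg11, Neat1, and Kcnq1ot1 were at −0.47, −0.46, −0.42, −0.54, and −0.77, and with the trend removed the median was −0.39, while with 2 quality components it was −0.08. The lower intronic share of the Ube3a2X libraries moved with this list, and its part in the result was not tested.

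**Figure D5:**
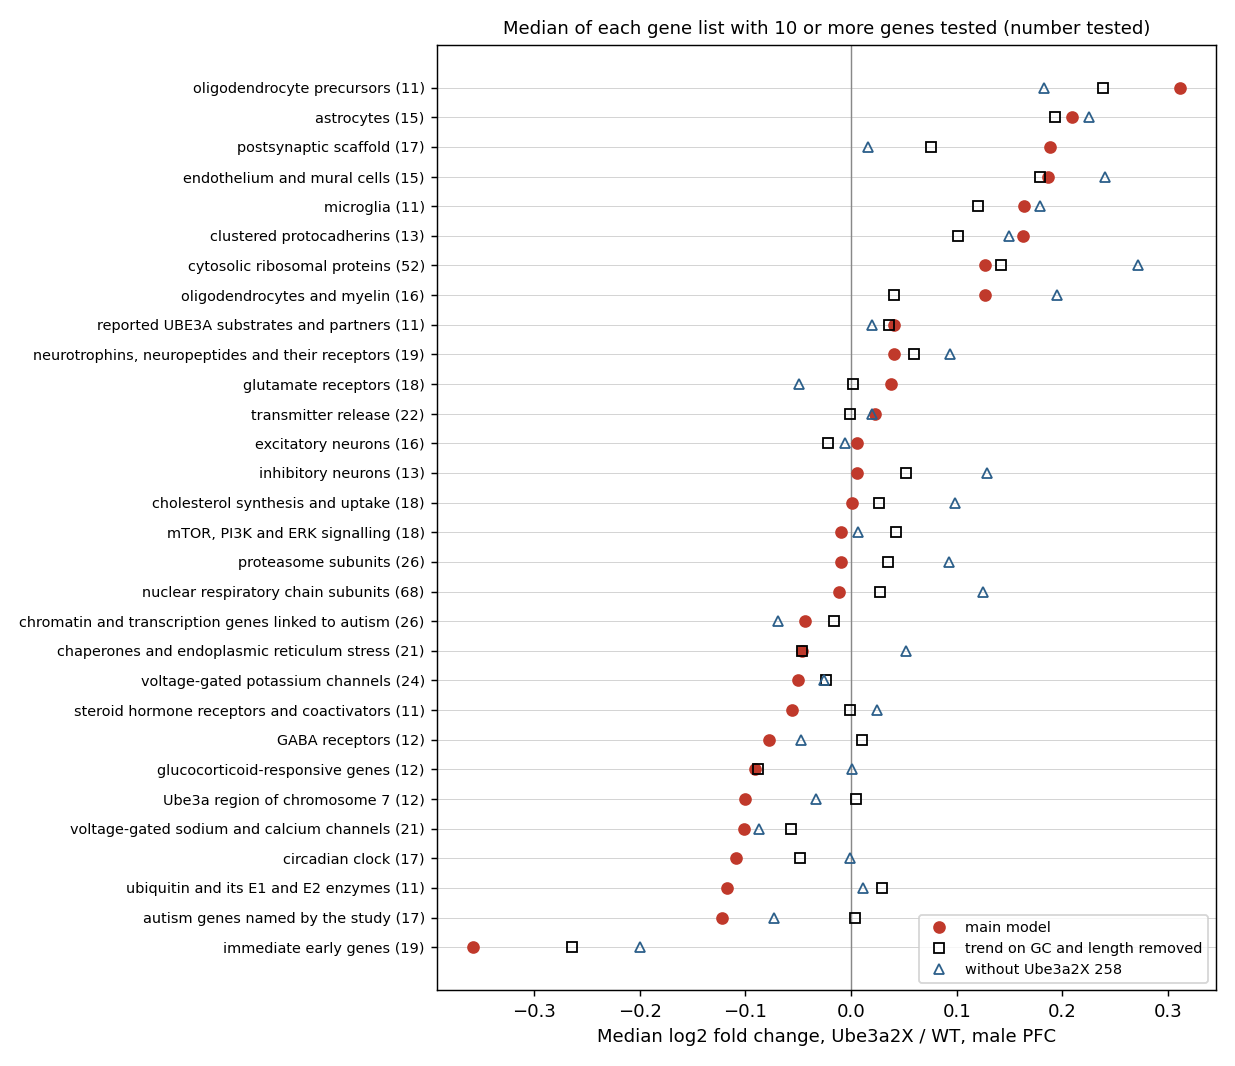
Median log2 fold change of each gene list with 10 or more tested genes (number in parentheses) in the main model (red circles), with the GC and length trend removed (squares), and without Ube3a2X 258 (triangles). Precursor, astrocyte, microglial, and vessel markers lie at 0.12 or above in all 3, the postsynaptic scaffold moves from 0.19 to 0.02 without 258, and immediate early genes lie at −0.20 or below in all 3.

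The study named 17 autism genes from these same samples by a difference of the genotype effect between the sexes, and Gabra4 as an example of such a difference. Their direction here is therefore no independent evidence. Of these 18 genes 17 were tested, and 3 were higher and 6 lower at an unadjusted p under 0.05 (1 and 2 without 258, 5 and 6 without 253, 1 and 2 with RIN only), and none was called. Fmr1, whose loss causes fragile X syndrome, had 171, 146, 166, 157, and 169 CPM in WT 245, 251, 256, 266, and 403, and 111, 145, 158, 132, and 122 CPM in Ube3a2X 238, 253, 258, 267, and 402 (−0.30 ± 0.06, adjusted p = 0.0627, edgeR). The groups overlapped through Ube3a2X 258. Gria2, Gabrb2, Gabra4, Scn1a (−0.23), and Scn2a (−0.15) were the other lower genes, and Chd3 (0.30), Smarcc2 (0.19), and Deaf1 the higher ones. The scaffold genes Shank3 (0.34 ± 0.18) and Dlg4 (0.20 ± 0.10) had positive values without reaching an unadjusted p of 0.05. Cul3, Mef2c, Sox5, and Tcf4 were between −0.15 and −0.06. The median of the 17 was −0.12, their median GC content was 43.3%, and with the trend removed the median was 0.00, with 2 higher and 2 lower. Tsc2, an inhibitor of mTOR signalling, was removed by the filter on variance, at 105 ± 7.35 and 112 ± 5.57 CPM.

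Among wider lists used by the study, genes raised in dup15q syndrome were higher in 17 of 89 and lower in 12 (10 and 7 without 258), and genes with private likely gene-disrupting variants in autism higher in 10 of 115 and lower in 17 (4 and 2 without 258, 34 and 21 without 253). The dup15q list holds Ube3a itself, which counts among its higher genes in each setting given. Genes lowered by dihydrotestosterone were higher in 28 of 114 and lower in 7, with a median of 0.10 and a median GC content of 54.6%, with 14 higher and 6 lower once the trend was removed, and 12 and 5 without 258. Genes raised by estrogen were higher in 3 of 33 and lower in 6 (1 and 2 without 258, 3 and 12 without 253), and genes lowered by it in 1 and 3 of 19 (1 and 0 without 258, 2 and 6 without 253). With RIN as the only covariate these lists had 3 higher and 0 lower for dup15q syndrome, 5 and 5 for the private variants, 9 and 3 for dihydrotestosterone, and 3 and 1, then 1 and 0, for estrogen. Of 26 chromatin and transcription genes linked to autism, 3 were higher, Deaf1 among them, and 1 lower (Med13, −0.16). Those counts were 5 and 1 without 253, and 1 and 0 without 258 or with RIN as the only covariate.

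The difference of the effect in males from that in females was tested in the 20 PFC libraries. Of 10900 genes, 0 were called (edgeR, smallest adjusted p = 0.0943), and 2766 (25.4%) had an unadjusted p under 0.05. That count was 1128 with the trend removed, 1446 without 238, and 1564 without 258. After adjustment DESeq2 called 829 and limma-voom 0. Without Ube3a2X 253 edgeR called 1015. Ube3a differed by −0.44 between males and females (adjusted p = 0.374, edgeR), with 227 to 317 CPM in WT and 943 to 2765 CPM in Ube3a2X females. Of the genes that rose in males, Gstm1, Mapk3, and 2310022B05Rik gave differences of 0.50, 0.62, and 0.51, all at an adjusted p of 0.0943, and were 117 to 222, 132 to 185, and 44.5 to 66.8 CPM in WT females and 120 to 185, 120 to 166, and 42.4 to 60.4 CPM in Ube3a2X females. Of those that fell, the GC-poor Far1, Lnpk, Hdx, C730002L08Rik, Snhg14, and Ttc14 gave differences of −0.45, −0.58, −0.72, −0.65, −0.53, and −0.45, also at 0.0943. The adjusted p was 0.369 for Ulk4, 0.376 for Nme7, 0.333 for Pter, and 0.419 for 1810014B01Rik. Among ribosomal protein genes 6 of 52 had an unadjusted p under 0.05 for this difference.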

How the data were processed

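RNA from PFC punches was sequenced as stranded paired-end mRNA libraries, prepared in 1 batch per the study's methods. Strand shares nevertheless fell in separate ranges, 97.4 to 99.1% in 6 Ube3a2X libraries and 91.5 to 95.6% in the other 14, and whether preparation differed was not tested. The authors aligned reads with STAR to GRCm38 (mm10) and counted them per gene on Gencode v24 with featureCounts, and the deposited counts for 54165 genes carry no normalization. The deposited quality table gives RIN and AT dropout as a score, shares of bases and the strand share as a fraction, and coverage evenness and end bias as a ratio, all used as given or in percent. GENCODE vM21 gave coordinates, GC content, and overlapping exons (53905 genes matched).

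Only the 10 male PFC libraries entered the main model. A gene was dropped if 2 or more libraries had under 100 reads for it, and of those left the 15% least variable on the log2-CPM scale (prior 2) were dropped too. The model used edgeR 4.0.16 (TMM, robust quasi-likelihood) with genotype, RIN, and 2 surrogate variables (sva 3.50.0), in R 4.3.3, and Benjamini-Hochberg adjustment. In simulated data 32.3% of 99 genes changed 1.5-fold and 98.9% of 89 changed 3-fold were called, and 17 of 10961 unchanged genes. Those counts were drawn gene by gene and fitted without the variance filter. They held no GC trend, strand-share difference, or outlying library, so they do not give the rate of false calls in the real libraries. Male values are TMM-scaled CPM over these libraries, while female values, values across 20 libraries, and marker sums are scaled over the 20 PFC libraries. Library measures were compared with exact permutation tests over 252 arrangements. Alternatives used DESeq2 1.42.0 and limma 3.58.1 (voom), other scaling, filters, and covariates, all 20 PFC libraries, 5-df splines on GC content and length, and each library left out. Strand share as a covariate was added after seeing the data. The comparison, gene lists, and tests were chosen with earlier results of these data known. Named were Ube3a, 9330162G02Rik, per direction the 12 genes with the smallest p at a mean log2-CPM of at least 2, 2 genes per list, and the autism genes. Mitochondrially encoded and replication histone genes were not analysed here, and some genes that the rule names are not reported here. The spread between mice exceeded the sampling of reads, with chi-square values of 36.6 to 331 per gene between libraries of a group.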

Additional observations from a re-analysis of the deposited data

Results flagged for a closer look

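In groups of 5 libraries, the highest or lowest was compared with its nearest neighbour, relative to the range of the group. By chance a library stands apart in about 1 in 20 single groups, but these groups come from the same libraries and are not independent. Of 92 such groups, 12 had a library that stood apart, and in all 12 it was Ube3a2X 258. In its measures, 51.0% of bases were coding, 40.8% lay in UTRs, the strand share was 92.1%, and the slope on transcript length was 0.499 log2 units per 10-fold length. In the other 8 it was the highest Ube3a2X library of a gene that fell: Ulk4 (9.58 CPM), Nme7 (33.4 CPM), Pter (21.99 CPM), 1700101I11Rik (13.5 CPM), Gm45552 (15.5 CPM), 1810014B01Rik (23.4 CPM), Hyls1 (7.28 CPM), and Phykpl (13.1 CPM).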

How the results depend on the processing

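No paired analysis was possible because a replicate number is a mouse and no mouse gave PFC of both genotypes. The count of genes called between genotypes (22) was 58 with RLE scaling, 712 with DESeq2, 962 with the filterByExpr filter, 54 without the variance filter, 60 with 1 surrogate variable, 1 with genotype or RIN only or with the trend removed and RIN only, 39 with the trend removed and 2 surrogate variables, 0 with 2 quality components (465 at an unadjusted p under 0.05), 2 over all 20 PFC libraries, and 2256 with strand share as a covariate. It was 1 to 999 with 1 library left out. At an unadjusted p under 0.05 the count (2496) was 3867 with filterByExpr, 1041 with genotype only, 966 with RIN only, 1049 with the trend removed and RIN only, 4103 with strand share, and 1088 to 3503 with 1 library left out. For the difference between males and females, DESeq2 called 829 genes in place of 0, and leaving out 1 library gave 0 to 1015. At an unadjusted p under 0.05 it was 1128 with the trend removed and 1446 to 3307 with 1 library left out. Ube3a did not pass with 2 quality components (2.17, adjusted p = 0.509, edgeR) or without Ube3a2X 238, and with 1 library left out it was 1.94 to 2.24. The causes were not tested. All 22 called genes kept their sign in every alternative except Gm45552 with strand share.

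The sign of some log2 fold changes turned, and apart from Gm45552 these were of genes not called in the model of the report. With 2 quality components the values were Cox6a1 −0.25, Srebf2 −0.26, Rora 0.072, Sst −0.33, Nrn1 0.12, Fa2h −0.32, Cnp −0.30, Col1a1 0.23, Ptgds 0.56, Rgs9 −0.56, Cdhr1 −0.25, Hba-a1 −0.42, Shank3 −0.047, Dlg4 −0.0029, Tcf4 0.025, and Gabra4 0.020. With strand share as a covariate the values were Gm45552 0.10, Ptpa −0.074, Gabrb2 0.086, Cox8a −0.22, Cox6a1 −0.47, Srebf2 −0.031, Med13 0.11, Nr3c2 0.15, Rora 0.057, Hsp90aa1 0.039, Sst −0.65 (adjusted p = 0.0472 there, edgeR), Cnp −0.0069, Col1a1 0.63, Ptgds 0.35, Ramp3 −0.44, Sp8 0.12, Rsph1 0.40, Hba-a1 −0.40, Cul3 0.081, Sox5 0.060, and Tcf4 0.19. With the trend removed and 2 surrogate variables the values were Cul3 0.019, Mef2c 0.016, and Tcf4 0.073. With the trend removed and RIN only the values were Cul3 0.034 and Tcf4 0.054. Over all 20 PFC libraries the value was Ptgds 0.0063. With filterByExpr the value was Rsph1 0.012. With genotype only the value was Rsph1 0.030. With 1 library left out the ranges were −0.96 to 0.13 for Col1a1, −0.88 to 0.29 for Ptgds, −0.0078 to 0.36 for Rgs9, −0.026 to 0.85 for Cdhr1, −0.28 to 9.2e-05 for Sp8, −0.19 to 0.23 for Kl, −0.28 to 0.089 for Rsph1, −0.11 to 0.49 for Hba-a1, −0.091 to 0.40 for Alas2, −0.12 to 0.48 for Shank3, and −0.021 to 0.29 for Dlg4.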
